A study of Mus musculus with 18 samples.

Results

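The genes described here are 10 members of the ATF4 and CHOP branch of the stress response and of its amino acid arm. They were measured in livers of mice with a conditional Nrf1 knockout (CKO), an Nrf2 knockout (KO) or a Keap1 knockdown (KD) genotype. They were Atf4, Atf5, Ddit3 (which encodes CHOP), Atf3, Trib3, Asns, Psat1, Mthfd2, Chac1 and Gdf15. They were chosen by name, with earlier results of these data known, so the choice is not independent of the values. They were found through the transcript each non-control probe was designed for. All 10 were on the array, out of 32282 genes or unnamed transcripts in all, and all 10 passed the filter on dim probes. Mthfd2 passed it through 1 group alone.

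The livers came from female mice aged 6 weeks, in 6 groups of 3 samples, with 1 single-colour array per sample and 18 arrays in all. The Nrf1 CKO mice had the genotype Nrf1(dN/-)::Alb-Cre, and their controls were Nrf1(dN/+), both on a strain given as mixed. The dN allele was thus present in the controls too, and Cre under the albumin promoter acts mainly in hepatocytes. The Nrf2 KO mice were Nrf2(-/-) and their controls Nrf2(+/+), on C57BL/6. The Keap1 KD mice were Keap1(Kd/-) and their controls Keap1(Kd/+), on a mixed strain, so the Kd allele was present in both Keap1 groups. Nothing in the labels ties the 3 samples of a group to different animals, and the p-values therefore measure only how far the samples spread, which may be technical.

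ATF4 is a transcription factor whose mRNA is translated more when the initiation factor eIF2 is phosphorylated by one of 4 kinases, which sense amino acid shortage, unfolded protein in the endoplasmic reticulum, lack of haem and double-stranded RNA. ATF4 then binds, often with C/EBP family partners, to a composite C/EBP-ATF element in genes for amino acid synthesis, amino acid transport and further stress regulators. CHOP and ATF3 are among these regulators, and TRIB3 feeds back on ATF4 and CHOP. Because ATF4 is controlled mainly through translation, the level of Atf4 mRNA is not a measure of the protein.

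A set of 4 short motifs was searched on both strands of the RefSeq promoters of these genes (build GRCm38.p6, 250 bases before to 50 bases after the start of transcription). All 10 genes had an entry, with 13 promoters among them. The C/EBP-ATF element TGATGNAA was found in 3.97% of all 32841 promoters, and in those of Atf3, Chac1, Asns and Trib3. The cyclic AMP response element TGACGTCA was in 1.79% of all promoters and in 0 of the 13, the AP-1 site TGACTCA was in 5.2% and in that of Ddit3, and the antioxidant response element TGACNNNGC was in 12.4% and in that of Asns. No match overlapped another. Atf3 and Chac1 are shown because they changed in opposite directions in Nrf1 CKO livers while holding the same 8 letters, Ddit3 because it rose with another motif, and Asns and Trib3 because they hold the C/EBP-ATF element and did not pass the test. Capitals mark the matches, and each sequence runs 5′ to 3′ on the strand of its gene. They lie at chr1:191183284-191183583 on the minus strand, chr2:119350992-119351291 on the plus strand, chr10:127290543-127290842 on the plus strand, chr6:7693160-7693459 on the minus strand and chr2:152344011-152344310 on the minus strand, in that order.
Atf3: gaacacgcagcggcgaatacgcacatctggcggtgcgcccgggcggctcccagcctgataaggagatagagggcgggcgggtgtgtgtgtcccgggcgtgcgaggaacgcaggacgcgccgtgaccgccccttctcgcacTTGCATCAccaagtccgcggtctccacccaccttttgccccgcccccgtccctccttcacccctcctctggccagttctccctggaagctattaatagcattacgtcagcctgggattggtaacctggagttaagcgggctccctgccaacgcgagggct
Chac1: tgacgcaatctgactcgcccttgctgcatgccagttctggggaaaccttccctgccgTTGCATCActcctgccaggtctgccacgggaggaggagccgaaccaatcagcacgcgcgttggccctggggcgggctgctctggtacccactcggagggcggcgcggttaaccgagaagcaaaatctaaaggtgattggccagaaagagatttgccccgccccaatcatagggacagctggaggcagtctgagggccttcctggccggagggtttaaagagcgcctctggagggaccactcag
Ddit3: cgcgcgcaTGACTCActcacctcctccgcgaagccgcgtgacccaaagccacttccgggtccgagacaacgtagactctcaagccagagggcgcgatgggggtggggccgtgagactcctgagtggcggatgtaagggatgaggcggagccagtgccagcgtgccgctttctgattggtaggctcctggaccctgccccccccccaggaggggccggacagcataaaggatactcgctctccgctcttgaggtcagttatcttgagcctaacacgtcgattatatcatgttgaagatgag
Asns: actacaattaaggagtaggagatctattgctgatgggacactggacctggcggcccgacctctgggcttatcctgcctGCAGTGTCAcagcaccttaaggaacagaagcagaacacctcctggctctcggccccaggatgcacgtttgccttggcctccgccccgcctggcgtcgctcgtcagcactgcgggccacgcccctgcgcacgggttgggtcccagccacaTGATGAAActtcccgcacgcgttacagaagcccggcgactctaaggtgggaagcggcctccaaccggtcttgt
Trib3: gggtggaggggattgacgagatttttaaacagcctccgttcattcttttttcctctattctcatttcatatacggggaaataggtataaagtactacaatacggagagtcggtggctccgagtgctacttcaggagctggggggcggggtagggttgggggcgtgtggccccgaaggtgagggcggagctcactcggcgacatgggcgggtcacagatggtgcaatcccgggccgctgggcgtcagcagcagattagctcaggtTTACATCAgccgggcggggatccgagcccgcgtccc
The C/EBP-ATF match began at position −110 in Atf3, −193 in Chac1, −23 in Asns and 15 in Trib3, counted from the start of transcription. It was on the strand opposite to the gene in Atf3, Chac1 and Trib3 and on that of the gene in Asns. The AP-1 match of Ddit3 began at −242 and the antioxidant element match of Asns at −172. The promoters of Atf4, Atf5, Psat1, Mthfd2 and Gdf15 held none of the 4 motifs in these windows. A match is a string of letters and not a measured site.

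Levels below are log2 signals relative to the array's own 75th percentile, a scale on which 1 probe can be followed across arrays but 2 probes cannot be compared. A gene was called where limma, fitted to all 17721 tested genes over the 18 arrays, gave an adjusted p (Benjamini-Hochberg) under 0.05. The 18 arrays had 50 to 65% of their spots well above background and 0 saturated spots. In the Nrf1 line this share was 57.5 to 60.1% on CKO arrays and 52.3 to 54.7% on control arrays, and its part in the results was not tested. The Nrf1 CKO arrays and Nrf1 control 3 were on 1 slide, and Nrf1 controls 1 and 2 were on another. All Nrf1 arrays were scanned on 1 date. No slide or scan date held both Nrf2 groups, so slide or date and genotype cannot be told apart in that line, except through arrays of the Keap1 line. Nfe2l1, the gene of NRF1, was at least 469-fold lower in Nrf1 CKO. This was measured in whole liver, and in which cells Nfe2l1 fell was not tested. Nfe2l2 changed by −8.2 (log2) in Nrf2 KO with 2 of 3 KO arrays below background, and Keap1 by −2.39 in Keap1 KD. Keap1 did not pass when slide was a block or when the 6 arrays of that line were fitted alone.

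In Nrf1 CKO livers, 5 of the 10 genes were called: Atf3, Ddit3, Gdf15 and Mthfd2 rose and Chac1 fell. Atf4, Atf5, Trib3, Asns and Psat1 were not called. Over all genes tested, 7.99% were called higher and 10.9% lower in this comparison, and groups did not overlap for 43.4%. Of the 10, groups did not overlap for 8. The median change of the 10 was 0.71, against −0.09 over all genes, and the changes ranged from −1.92 to 3.43. Of all calls in this comparison 42.3% were higher with the scaling used here, and 55.1% after quantile normalization.

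**Figure D1:**
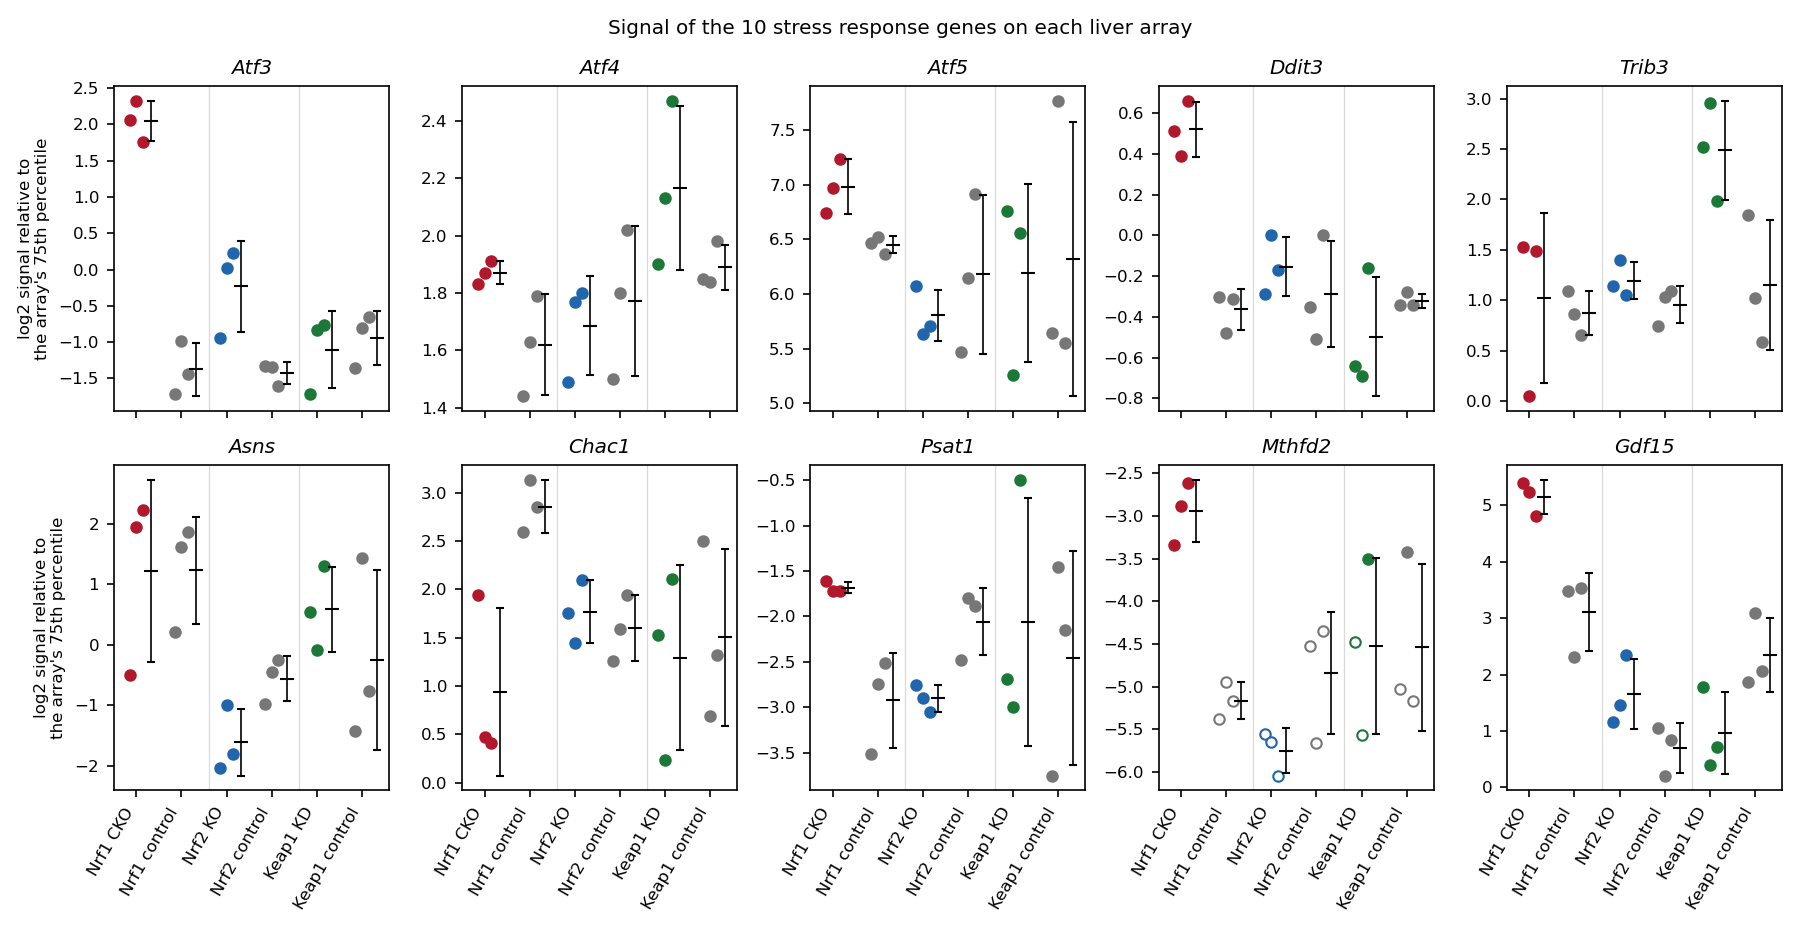
Log2 signal of each of the 10 genes relative to the array's 75th percentile, on every array, with each mutant group left of its own control (grey). Bars at the right of each group are the mean ± SD (n = 3), and open points were not well above background. Atf3 lay at 1.76 to 2.32 on the Nrf1 CKO arrays, above the 15 other arrays.

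Atf3, a transcription factor induced by many kinds of stress, had the largest change of the 10. It was at 2.06, 2.32 and 1.76 on the 3 Nrf1 CKO arrays, against −1.71, −0.98 and −1.44 on the Nrf1 control arrays. The groups lay far apart, and the Nrf1 CKO arrays were above all others. The signal was 10.8-fold higher (log2 fold change 3.43, SE 0.32, limma adjusted p = 4.22e-05, n = 3 each). It was 3.49 when the 3 CKO arrays were set against the 1 control on their slide, and it was the 1 gene of the 10 still called with slide as a block. The 6 group means ran from 2.05 in Nrf1 CKO through −0.23 in Nrf2 KO and −0.94 in Keap1 control to −1.42 in Nrf2 control, and only the step between Nrf1 CKO and Nrf2 KO exceeded the ranges of neighbouring groups.

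Ddit3 encodes CHOP, a C/EBP family factor that acts downstream of ATF4 and promotes cell death in prolonged stress. Its level was 0.51, 0.39 and 0.66 in Nrf1 CKO, against −0.30, −0.48 and −0.31 in Nrf1 control. The change was smaller than that of Atf3, but the samples of a group lay close together and the groups did not overlap. The signal was 1.85-fold higher (0.88, SE 0.17, limma adjusted p = 0.00426, n = 3 each). The size was 0.83 with slide as a block, and the gene then missed the threshold (adjusted p = 0.17).

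Atf4 was at 1.83, 1.87 and 1.91 in Nrf1 CKO, against 1.44, 1.63 and 1.79 in Nrf1 control. All 3 CKO values were higher than the 3 control values, by a difference of 0.25 (SE 0.17, limma adjusted p = 0.319; 95% interval −0.11 to 0.61). The interval leaves room for no change and for a rise of up to 0.61 on the log2 scale. Atf5, a relative of ATF4 that is also controlled through translation and is abundant in liver, was at 6.74, 6.97 and 7.24 in Nrf1 CKO, against 6.47, 6.52 and 6.37 in Nrf1 control. Its groups did not overlap either, but the spread of Atf5 in the other lines was wide and it was not called (0.53, SE 0.52, adjusted p = 0.495; 95% interval −0.57 to 1.63). Trib3, a pseudokinase induced by ATF4 and CHOP, was at 1.53, 0.05 and 1.49 in Nrf1 CKO, against 1.09, 0.87 and 0.66 in Nrf1 control. Nrf1 CKO 2 lay below every control and the groups overlapped (0.15, SE 0.38, adjusted p = 0.818; 95% interval −0.65 to 0.95).

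Among the amino acid and one-carbon enzymes, Mthfd2 rose while Asns and Psat1 were not called. Mthfd2, a mitochondrial folate enzyme that is low in most adult tissues, was at −3.34, −2.88 and −2.62 in Nrf1 CKO, against −5.38, −4.94 and −5.17 in Nrf1 control. Its probe was well above background on all 3 CKO arrays and on 0 of the 3 controls, and in the other lines only on Keap1 KD 3 and Keap1 control 2. The signal was at least 3.04-fold higher in Nrf1 CKO (limma adjusted p = 0.0095). A gene that passes the filter only through the group where it is high had to differ, so the count of 5 includes 1 gene of that kind. The call was lost without Nrf1 CKO 3 (adjusted p = 0.054).

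Psat1, which makes a serine precursor, was at −1.61, −1.72 and −1.72 in Nrf1 CKO, against −3.51, −2.74 and −2.51 in Nrf1 control. The groups did not overlap, and the difference of 1.23 did not pass the test (SE 0.58, limma adjusted p = 0.144; 95% interval 0 to 2.47). The SE is shared with the Keap1 line, where Psat1 spread widely, and with the 6 arrays of the Nrf1 line alone Psat1 was called (adjusted p = 0.0373). Asns, which makes asparagine and is a standard ATF4 target, was at −0.50, 1.95 and 2.22 in Nrf1 CKO, against 0.22, 1.61 and 1.87 in Nrf1 control. Nrf1 CKO 1 and Nrf1 control 1 were low and the 4 other arrays high, so the spread within each group was wider than the difference (−0.01, SE 0.75, adjusted p = 0.995). The 95% interval, −1.6 to 1.58, covers a change of either sign.

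Chac1, which encodes an enzyme that degrades glutathione and is an ATF4 target, moved the other way. It was at 1.94, 0.47 and 0.41 in Nrf1 CKO, against 2.59, 3.13 and 2.85 in Nrf1 control. The groups did not overlap, and Nrf1 CKO 1 stood nearer to the controls than the other CKO arrays did. The signal was 3.77-fold lower in Nrf1 CKO (−1.92, SE 0.51, limma adjusted p = 0.0189, n = 3 each). The call was lost without Nrf1 CKO 2 (adjusted p = 0.0871), without Nrf1 CKO 3 (0.0992) and without Nrf1 control 2 (0.0591). Among the 6 group means, the Nrf1 control was the highest, at 2.86, and its range lay above that of the next, Nrf2 KO, at 1.77.

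Gdf15, a secreted stress cytokine that reduces appetite, was at 5.39, 5.24 and 4.81 in Nrf1 CKO, against 3.49, 2.31 and 3.54 in Nrf1 control. All CKO values were above all control values, and above every array of the other lines. The signal was 4.1-fold higher (2.04, SE 0.44, limma adjusted p = 0.0075, n = 3 each). Against the 1 control on the same slide the difference was 1.61, the size also found with slide as a block, which did not pass the test (adjusted p = 0.248). In control livers of the 3 lines, Gdf15 had means of 3.11 ± 0.70 in Nrf1 control, 2.34 ± 0.65 in Keap1 control and 0.70 ± 0.44 in Nrf2 control (SD, n = 3 each). The ranges of the Nrf1 and Keap1 controls overlapped, and differences between controls were not tested. Strain, slide and scan date were not the same across these controls.

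**Figure D2:**
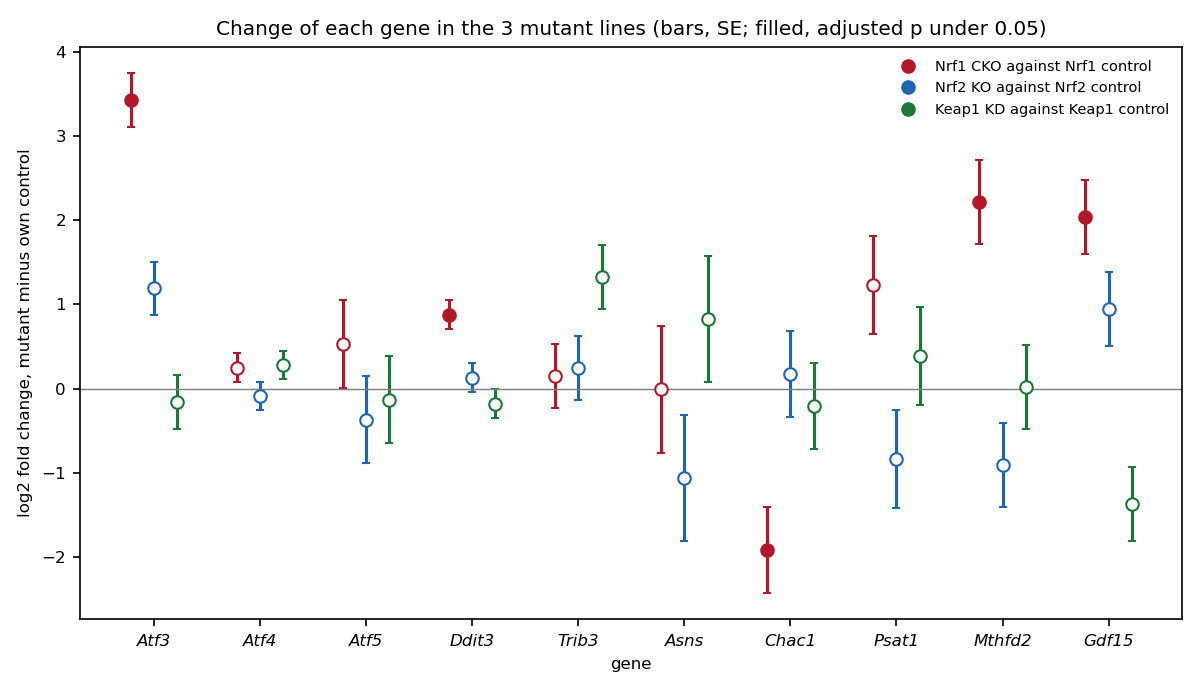
Log2 fold change of each gene (mutant minus own control) in the 3 lines. Points are estimates over 3 arrays per group, bars the SE and filled points an adjusted p under 0.05. The 5 filled points, from −1.92 (Chac1) to 3.43 (Atf3), all belong to Nrf1 CKO.

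In Nrf2 KO livers 0 of the 10 genes were called by limma, with Atf3 and Gdf15 at an unadjusted p under 0.05. Over all genes 0.00564% were called higher and 0.0564% lower, and groups did not overlap for 20.8% of genes and for 4 of the 10. The median of the 10 was 0.02, against 0.01 over all genes. Atf3 was at −0.94, 0.02 and 0.23 in Nrf2 KO, against −1.33, −1.34 and −1.60 in Nrf2 control. The groups did not overlap, and the difference of 1.19 missed the threshold (SE 0.32, limma adjusted p = 0.28; 95% interval 0.51 to 1.87). Gdf15 was at 1.16, 1.46 and 2.35 in Nrf2 KO, against 1.06, 0.21 and 0.84 in Nrf2 control (0.95, SE 0.44, adjusted p = 0.559). Asns and Psat1 were lower on all Nrf2 KO arrays than on all Nrf2 control arrays, by −1.06 (SE 0.75, adjusted p = 0.743) and −0.84 (SE 0.58, adjusted p = 0.734). Asns was at −2.04, −0.99 and −1.80 in Nrf2 KO, against −0.97, −0.45 and −0.25 in Nrf2 control, so the nearest values were almost equal. Mthfd2 was not well above background on any Nrf2 array and has no fold. The 5 others had changes from −0.37 (Atf5) to 0.24 (Trib3).

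In Keap1 KD livers 0 of the 10 were called by limma, with Trib3 and Gdf15 at an unadjusted p under 0.05. Over all genes 0.948% were called higher and 4.58% lower, and groups did not overlap for 17% of genes and for 2 of the 10, again Trib3 and Gdf15. Higher genes made up 17.2% of all calls. Quantile normalization brought this to 27.4%, and scaling to the array median to 49.9%, since it moves the median change of all genes to 0.31. Trib3 was at 2.52, 2.96 and 1.98 in Keap1 KD, against 1.85, 1.02 and 0.59 in Keap1 control. The lowest Keap1 KD array stood just above the highest control, and the difference was 1.33 (SE 0.38, limma adjusted p = 0.0511; 95% interval 0.53 to 2.14). A second Trib3 probe gave 1.15 (SE 0.34, adjusted p = 0.0689 in a fit of all probes). Trib3 passed in only 3 of 15 other settings, and the limma adjusted p reached 0.373 across the alternatives. The 3 were the array median (1.64, adjusted p = 0.0368), an intensity trend (adjusted p = 0.0394) and slide as a random block (adjusted p = 0.0499). Of the 6 fits with 1 array left out Trib3 passed in 2, without Keap1 control 1 (adjusted p = 0.0236) and without Keap1 KD 3 (adjusted p = 0.0481). On the 1 slide with both Keap1 groups, 1 array each, Trib3 differed by 1.39.

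Gdf15 went the other way in Keap1 KD, at 1.78, 0.40 and 0.72, against 1.87, 3.09 and 2.06 in Keap1 control. Keap1 KD 1 was close to the lowest control, and the difference of −1.37 was not called (SE 0.44, limma adjusted p = 0.0904; 95% interval −2.32 to −0.43). Without Keap1 KD 1 it was −1.78 and was called (adjusted p = 0.0486). Atf4 (0.28), Ddit3 (−0.18) and Atf3 (−0.16) were not called. Asns, Psat1 and Mthfd2 were high together on 1 array of each group. Psat1 was at −2.69, −3.00 and −0.50 in Keap1 KD, against −3.75, −1.46 and −2.15 in Keap1 control. Asns was at 0.54, −0.09 and 1.31 in Keap1 KD, against −1.42, 1.43 and −0.76 in Keap1 control. Keap1 KD 3 and Keap1 control 2 were the high arrays for both genes and for Mthfd2, and for Psat1 the difference between the group means, 0.39, was smaller than either SD (1.36 in Keap1 KD and 1.17 in Keap1 control).

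Each line had its own controls, so the effects could be compared in the same fit. The effect in Nrf1 CKO exceeded that in Nrf2 KO for Atf3, by 2.24 (SE 0.45, limma adjusted p = 0.0138), which did not pass when scan date was a block (adjusted p = 0.0733). Over all genes 5.58% were called in this comparison. Mthfd2 has no measured difference here, since Nrf1 control, Nrf2 KO and Nrf2 control were all below background for it and it entered the fit only through Nrf1 CKO. The effect in Nrf1 CKO exceeded that in Keap1 KD for Atf3 by 3.59 (SE 0.45, limma adjusted p = 0.000817), for Gdf15 by 3.41 (SE 0.63, adjusted p = 0.0109) and for Ddit3 by 1.06 (SE 0.24, adjusted p = 0.0231), where 6.92% of all genes were called. With slide as a block none of these differences of Atf3, Gdf15 and Ddit3 passed, and that of Ddit3 also missed the threshold under 6 other settings. For Chac1 the difference between Nrf1 CKO and Nrf2 KO was −2.09 (SE 0.72, adjusted p = 0.095). Between Nrf2 KO and Keap1 KD 0 of the 10 were called, against 3.09% of all genes, and Gdf15 came nearest (2.33, SE 0.63, adjusted p = 0.0589).

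**Figure D3:**
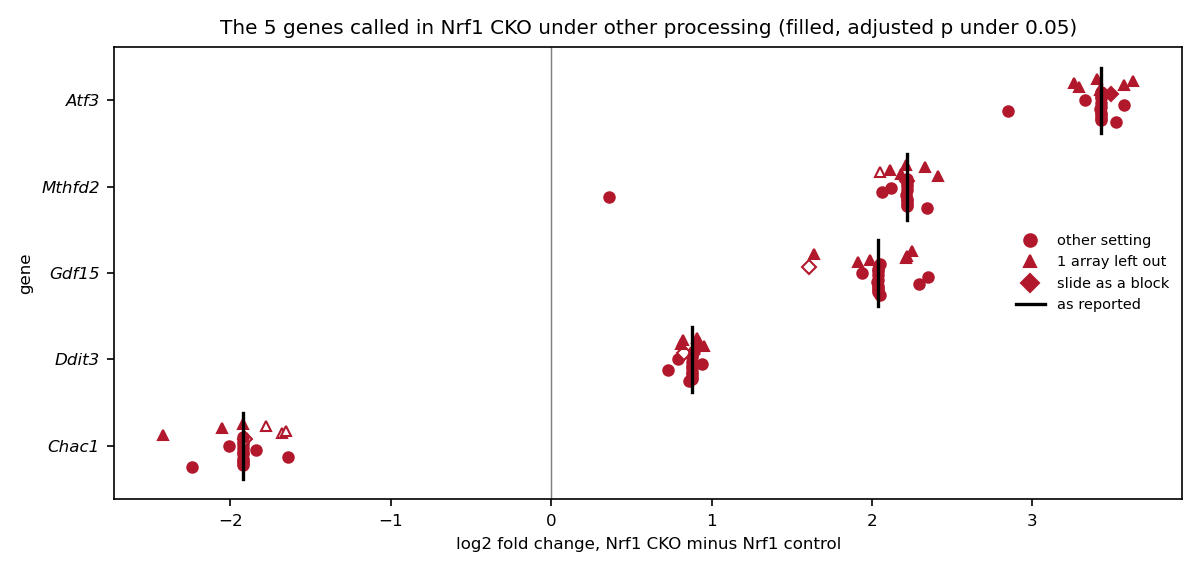
Log2 fold change, Nrf1 CKO minus Nrf1 control, of the 5 called genes under each alternative setting. The black line is the value reported, triangles leave out 1 array, the diamond has slide as a block and filled symbols have an adjusted p under 0.05. All values keep their sign, and Atf3 stays between 2.85 and 3.63.

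Lists of related genes were counted in Nrf1 CKO livers, beside the 7.99% of all genes called higher and 10.9% called lower. With slide as a block, 0 genes of the pathway, chaperone and proteasome lists described here were called. Of 12 genes of eIF2 signalling 0 rose and 2 fell: Ppp1r15b, a subunit of the phosphatase that resets eIF2 (−0.74), and Eif2b5, part of the exchange factor that phosphorylated eIF2 inhibits (−0.41). The 4 eIF2 kinases, named after their values were seen, were not called, with Eif2ak3 (the kinase PERK) at 0.62, Eif2ak2 (PKR) at 0.53, Eif2ak4 (GCN2) at −0.31 and Eif2ak1 (HRI) at −0.40. Of 20 tested further ATF4 targets 1 rose and 3 fell. Pck2, the mitochondrial enzyme that makes phosphoenolpyruvate, rose by 0.85, while the transcription factor Cebpb fell by 1.07, the angiogenic factor Vegfa fell by 0.79 and the translation repressor Eif4ebp1 fell by 0.56. After quantile normalization the lower calls were 1 for eIF2 signalling and 2 for these targets. The median of these 20 was −0.09, the same as over all genes, and both counts lie near the shares over all genes.

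Serine and one-carbon genes (13 tested) had 1 higher and 4 lower call. The methionine synthase Mtr rose by 0.78, and the folate enzyme Aldh1l1 fell by 1.49, the mitochondrial serine transporter Sfxn1 fell by 1.34 and the cytosolic serine hydroxymethyltransferase Shmt1 fell by 0.61. After quantile normalization 1 was higher and 2 were lower, and the list median was −0.19 in place of −0.46. Of 12 amino acid transporters 2 rose and 3 fell. Slc1a4, which carries alanine, serine and cysteine, was 7.85-fold higher (2.97, SE 0.64, limma adjusted p = 0.007), and the glutamine carriers Slc38a3 (−1.48) and Slc38a2 (−0.98) and the cationic carrier Slc7a2 (−1.17) fell. After quantile normalization 2 transporters were higher and 1 was lower. Among 19 tRNA synthetases, Gars, which charges glycine, rose by 0.93 and 0 fell, and after quantile normalization 2 rose.

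Neither of the 2 lists for other protein stress responses had a higher call. Of 19 endoplasmic reticulum chaperones and folding genes 0 rose and 0 fell at limma's threshold (median 0.08), while after quantile normalization 3 rose. Of 10 mitochondrial chaperones and proteases 3 fell: Hspd1 (−0.81), Afg3l2 (−0.71) and Hspa9 (−0.57), though after quantile normalization 0 fell and 1 rose. Of 32 subunits of the proteasome, whose genes NRF1 is known to drive, 21 fell and 0 rose (median −0.62), and 10 fell after quantile normalization. Psma5, Psmc6 and Psmd12 each fell by 0.93.

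Atf3 and Gdf15 are also known as p53 targets, and Atf3 as an immediate early gene. Of 18 tested p53 targets 11 rose and 0 fell (median 1.17, also with dim genes at their bound), among them the receptors Eda2r (at least 12.4-fold) and Tnfrsf10b (at least 3.46-fold), Phlda3 (2.67) and Zmat3 (1.5). Eda2r and Tnfrsf10b were below background on all Nrf1 control and all Keap1 arrays. In each Nrf2 group 2 of the 18 were below background on all arrays. A gene that passes the filter only through Nrf1 CKO, where it is high, had to differ, as with Mthfd2. Of 18 immediate early genes 5 rose and 0 fell (median 0.63), with Egr2 at 3.39 (1 control array below background), Nr4a1 at 2.35, Fos at 2.01 and Jun at 1.51. Btg2, named for this reason alone, is in both lists, so their counts are not independent. Higher calls numbered 12 for p53 targets and 8 for immediate early genes after quantile normalization, with 0 lower. With slide as a block 0 genes of either list were called, and the list medians were 0.97 and 0.71. In Keap1 KD livers Jun fell by 0.75 and in Nrf2 KO livers 0 genes of these lists were called.

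**Figure D4:**
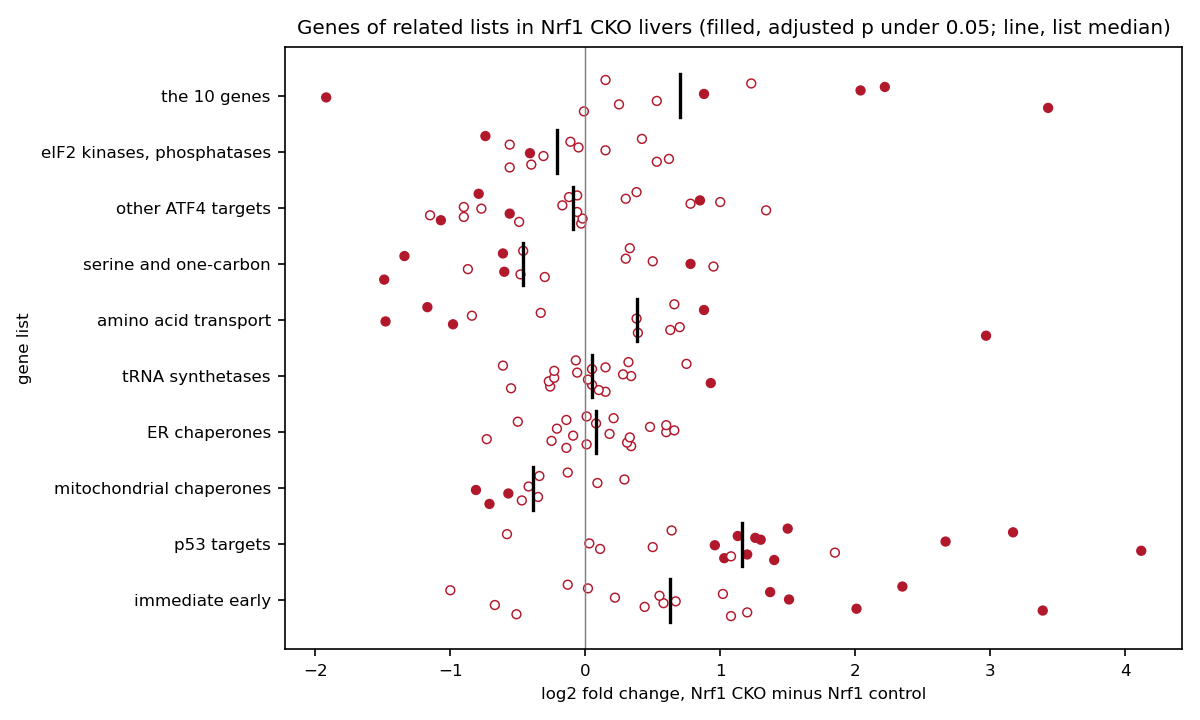
Log2 fold change in Nrf1 CKO (mutant minus own control) of each tested gene of the 10 genes and of 9 related lists. Filled points have an adjusted p under 0.05 and the black line is the list median, 0.71 for the 10 genes, −0.09 for other ATF4 targets and 1.17 for p53 targets.

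Markers of liver cell types also differed on these arrays. With slide as a block 0 hepatocyte and 0 stellate cell markers were called, 2 macrophage markers were higher and 1 endothelial marker was lower. Of 8 tested hepatocyte markers 4 fell and 0 rose, and their summed signal (linear, relative to the 75th percentile) was 1440 to 2170 in Nrf1 CKO and 2450 to 2910 in Nrf1 control. After quantile normalization 1 was lower, and the median was −0.19 in place of −0.63. All 8 were above background in both groups. Such a sum adds signals of different probes, so the brightest weigh most, and it does not measure an amount of cells. Of 10 stellate cell markers 9 rose, with a summed signal of 131 to 187 in Nrf1 CKO and 85.5 to 112 in Nrf1 control. The same sum was 142 to 180 in Nrf2 control and 122 to 138 in Keap1 control. The Nrf1 CKO range thus overlapped those of the other controls, and the Nrf1 control was the lower group. Of 9 macrophage markers 4 rose and 1 fell. Their summed signal was 77.4 to 272 in Nrf1 CKO and 55.4 to 103 in Nrf1 control, and these ranges overlapped. Gpnmb, 1 of the 4 that rose, was well above background on 0 Nrf1 control arrays, 0 Keap1 KD arrays and 1 Keap1 control array. In each Nrf2 group 1 of the 9 markers was below background on all arrays. A gene that passes the filter only through Nrf1 CKO, where it is high, had to differ. Trem2 rose by 4.15 and Cd163 fell by 1.5, so the macrophage markers did not move as 1. Endothelial (10 tested, 0 higher, 1 lower), cholangiocyte (7, 0 and 0), lymphocyte (8, 1 and 0), neutrophil (5, 0 and 0) and pancreas markers (3, 1 and 0) had few calls. The part of these cells in the changes of the 10 genes was not tested, and in a piece of liver fewer cells of a type and less RNA per cell cannot be told apart. In the other 2 lines 0 (Nrf2 KO) and 4 (Keap1 KD) of the markers were called: Trem2 and Lyve1 were higher and Lum and Cela1 lower in Keap1 KD.

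For each called gene, the 3 genes whose 6 group means lay nearest were found among 12873 genes with a symbol, by the root mean square difference after centring. Nearest to Atf3 were Ihh (0.291), the growth factor Nrg1 (0.318) and the death receptor Tnfrsf10b (0.337). Nearest to Gdf15 were the immediate early factors Fos (0.321) and Egr1 (0.487) and the acute phase protein Lcn2 (0.467). The fitted changes of Fos were 2.01 in Nrf1 CKO, 1.26 in Nrf2 KO and −1.10 in Keap1 KD, where Gdf15 had 2.04, 0.95 and −1.37. Fos was not well above background on any Keap1 KD array, so its value in that line is not a measured change. Of the 18 immediate early genes 1 was below background on all Nrf2 control arrays. The value of Fos in Nrf2 KO is therefore not taken as a measured change either. Ddit3 was nearest to Gdpd1 (0.039), S1pr2 (0.057) and Cnksr3 (0.065), Chac1 to Dleu2 (0.118), N4bp2l1 (0.141) and Ppargc1b (0.149), and Mthfd2 to Tmem171 (0.253), Ect2 (0.291) and Ocstamp (0.295). These distances are over 6 means of the same arrays and are given as a description. Mthfd2 was well above background on only 5 of the 18 arrays, so the distances from it rest largely on dim signal. Tnfrsf10b was below background on all Nrf1 control and Keap1 arrays, which limits its distance from Atf3 in the same way.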

How the data were processed

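The 18 arrays were single-colour Agilent mouse arrays read with Agilent Feature Extraction 10.7.3.1, per the file headers. The processed signal intensities were background-subtracted and detrended, and not normalized between arrays, per the file headers. The spot and background median intensities and the flags for background, saturation, outliers and control type are other output of that software, deposited with them. The intensities of the authors' series table equalled the processed signals at 810324 of 810324 entries.

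Outlier spots were dropped, log2 signals of a probe's spots were averaged, and log2 of the array's 75th percentile was subtracted. A probe was tested if any group had it well above background (at least 50% of its spots) on each of its 3 arrays, and the brightest probe stood for a gene, which left 17721 genes. Trib3 and Nfe2l2 had 2 probes each. The 6 group means were fitted with limma 3.58.1 in R 4.3.3 (12 residual and 3.07 prior degrees of freedom), with Benjamini-Hochberg adjustment over all genes. In data simulated for the Nrf1 comparison (17670 genes), 49% of genes changed by 1 and 84% of genes changed by 2 (log2) were recovered. The simulation changed 200 genes and had normal noise and no slide effect. Its rates do not carry over to these arrays, where many more genes were called. The number of arrays limits the precision.

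Members and gene lists were chosen with earlier results of these data known, so they are not independent of them. Named genes are the 10, the 3 targeted genes, up to 4 called genes of each list with the largest change, and the 3 nearest genes of each called member. For a group with every array below background, the fold is a lower bound, set against the lowest signal that was above background there. Alternatives changed the scaling, background correction, filter, probe choice, model, blocks (replicate number, slide, scan date) and left out each array. Promoters are RefSeq's (GRCm38.p6), while the array headers name the build mm9, and no array coordinate was used.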

Additional observations from a re-analysis of the deposited data

Results flagged for a closer look

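Of the differences between lines, 5 passed the test of the difference itself (limma, adjusted over all genes), each with 3 arrays per group. Atf3 changed more in Nrf1 CKO than in Nrf2 KO, by 2.24 (SE 0.45, adjusted p = 0.0138), and more than in Keap1 KD, by 3.59 (SE 0.45, adjusted p = 0.000817). The fitted difference of Mthfd2 between Nrf1 CKO and Nrf2 KO was 3.12 (adjusted p = 0.0235), but Nrf1 control and both Nrf2 groups were below background, and the gene entered the fit only through Nrf1 CKO, so neither its size nor its p is a measurement. It was 0.48 after normexp, and the call was lost under 9 settings besides slide as a block. Ddit3 changed more in Nrf1 CKO than in Keap1 KD, by 1.06 (SE 0.24, adjusted p = 0.0231), and Gdf15 by 3.41 (SE 0.63, adjusted p = 0.0109). With slide as a block none of the 5 passed, and with scan date as a block the difference of Atf3 from Nrf2 KO (adjusted p = 0.0733) and that of Ddit3 (adjusted p = 0.097) did not. The Nrf1 arrays share no slide or scan date with those of the other lines, and the Nrf2 line also has another strain, so these and the gene targeted cannot be told apart.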

How the results depend on the processing

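Across 15 alternative settings and arrays left out in turn, 1434 values of the 10 genes were recomputed. The call was the same for 1385, lost for 29 and gained for 20, 0 called values changed sign, and 60 values that were not called in either setting did. In Nrf1 CKO, 5 of the 10 were called, 1 (Atf3) with slide as a block, where the comparison rests on the 1 control on the slide of the CKO arrays, and 3 to 5 with 1 array left out (3 without Nrf1 CKO 3). Psat1 was also called with array weights (1.34, adjusted p = 0.022) and with the line alone. The change of Mthfd2 was 0.36 in place of 2.22 after normexp, whose offset compresses dim signals, and Mthfd2 has no value where a probe must be above background on all arrays. In Nrf2 KO the count was 0 under all of these settings. In Keap1 KD it was 0, and 1 (Trib3) with the array median, an intensity trend or slide as a random block, and 0 to 1 with 1 array left out. For Nrf1 CKO against Nrf2 KO it was 2, but 1 without the filter or with probes above background on all arrays, 5 with array weights, 0 with a slide block or a scan date block, 4 with both lines alone and 1 to 3 with 1 array left out. For Nrf1 CKO against Keap1 KD it was 3, but 0 with slide as a block and 2 to 4 with 1 array left out. For Nrf2 KO against Keap1 KD it was 0, but 1 (Gdf15, adjusted p = 0.0456) with an intensity trend and 0 to 1 with 1 array left out.

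Over all genes, 3348 were called in Nrf1 CKO, against 2117 without the filter, 8154 with array weights, 65 with slide as a block and 939 (without Nrf1 CKO 3) to 4160 with 1 array left out. The 11 of Nrf2 KO became 22 with the array median, 21 with a trend, 74 with weights, 7 with scan date as a block, 6 with the line alone and 6 to 12 with 1 array left out. The 979 of Keap1 KD became 555 after quantile normalization, 504 after normexp, 615 without the filter, 439 with probes above background on all arrays, 251 with weights, 55 with a slide block and 255 with a scan date block, 52 with the line alone and 350 to 1048 with 1 array left out. With the replicate number as a block the counts of the 10 genes were 5 in Nrf1 CKO, 0 in Nrf2 KO and 0 in Keap1 KD, and 3583, 11 and 908 over all genes. Same-numbered arrays correlated at −0.359 to 0.147 (deviations from the group means, across genes). The labels do not say that the numbers pair samples, and with 3 arrays per group these correlations cannot decide it. Dim signal limits Mthfd2, and 3 arrays per group limit every value.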
